A study of Mus musculus with 8 samples.

Results

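Slits are secreted ligands of the Robo receptors, and class 3 semaphorins are secreted ligands that act through neuropilins, which bind the ligand, and plexins, which carry the signal into the cell. They are best known for steering growing axons, and in the limb they are also known for guiding motor and sensory nerves, blood vessels and migrating muscle precursors. The genes described here were *Slit2* and *Slit3* (ligands), *Robo1* and *Robo2* (their receptors), *Sema3a*, *Sema3c* and *Sema3d* (ligands), *Nrp1* and *Nrp2* (neuropilins) and *Plxna2* (a plexin). They were chosen by symbol, with earlier results of these data known, and all 10 were found among the 28001 features measured. On GRCm38 (GENCODE M21) *Slit2*, *Sema3a*, *Sema3c* and *Sema3d* lie on chromosome 5, *Robo1* and *Robo2* on chromosome 16, *Nrp2* and *Plxna2* on chromosome 1, *Slit3* on chromosome 11 and *Nrp1* on chromosome 8. As annotated genes, *Sema3d* spans chr5:12383385-12588948 on the plus strand, *Nrp2* chr1:62703285-62818695 on the plus strand and *Robo2* chr16:73891839-74411825 on the minus strand, and all 10 are protein-coding.

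Expression was measured by 10x Genomics 3′ droplet RNA sequencing of mouse forelimb cells, where each unique molecular identifier (UMI) marks 1 captured transcript. Sorted tdTomato+ cells gave 6 libraries, 1 for each day from E11.5 to E14.5 and 2 for segments of E16.5 forelimbs. The proximal segment spanned the distal stylopod, the elbow and the proximal zeugopod, and the distal segment the distal zeugopod and the autopod. A further 2 libraries came from whole E11.5 limbs (whole 1 and whole 2), labelled as holding tdTomato+ and tdTomato- cells alike. All groups carried, per the labels and the study's methods, a *Hic1* CreERT2 allele and a Rosa26 LSL-tdTomato reporter, both homozygous in the sorted libraries, on a C57BL/6J background, and dams received 7.5 mg of tamoxifen at E10. CreERT2 is a Cre recombinase that acts only with tamoxifen and that is made here where *Hic1* is transcribed, so tdTomato marks those cells and their descendants. Every group carries the knock-in, so none of them shows the wild-type *Hic1* locus. Limbs of several embryos were pooled into each sorted library, so a library is 1 sample, and cells with blood and endothelial surface markers were removed in the sort.

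Libraries held between 32957305 and 236408650 UMIs, and 53085 of 57469 barcodes passed the filter of at least 3000 UMIs and at most 10% mitochondrial UMIs. Levels are UMIs per 1000000 (CPM), summed over the 3156 to 10168 mesenchymal cells of each library, which are the cells outside muscle, epithelial, endothelial, immune, erythroid and glial clusters. Intervals on single libraries are exact Poisson 95% intervals and cover counting error only. In the sorted libraries, *Hic1* was at 23.8 to 38.0 CPM and tdTomato at 430 to 1410 CPM. In whole 1 and whole 2, *Hic1* was at 0.771 and 0.785 CPM and tdTomato at 3.75 and 4.33 CPM. The limb mesenchyme marker *Prrx1* was at 235 to 309 CPM in sorted libraries, against 702 and 659 CPM in whole 1 and whole 2. No pair of libraries shared more than 48 cell barcodes. The study's methods give the v2 kit for stages through E13.5 and v3 afterwards, so the step from E13.5 to E14.5 cannot be told apart from the change of kit.

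Promoters are shown for the gene with the largest difference in each direction along the limb axis at E11.5, *Sema3d* (lower distally) and *Nrp2* (higher distally), and for 2 that hold a MEIS letter match. Cells were typed there by the *Meis* and *Hox13* genes. RefSeq gave 12 windows for the 10 genes on GRCm38.p6, each from 250 bases before to 50 after a transcript start. They were searched on both strands for TGACAG, the MEIS hexamer, and for TTTATNG, a HOX13 core. Capitals mark a match. The hexamer occurred in 3 of the 12 windows and in 19.2% of all 32851 RefSeq promoter windows, and the HOX13 core in 0 of the 12 and in 10.9% of all. A match is a description of letters and not a binding site, and none of the other windows says anything about the factors. *Sema3d* lay on chr5:12382916-12383215 (+), *Nrp2* on chr1:62703067-62703366 (+), *Robo2* on chr16:75447244-75447543 (-, the most upstream of its 3 windows) and *Plxna2* on chr1:194619579-194619878 (+). This *Robo2* window lies upstream of the annotated gene span given above, as does a further *Robo2* window with the hexamer, chr16:75092721-75093020. The *Robo2* window at the annotated gene start, chr16:74411776-74412075, held 0 matches.
Sema3d: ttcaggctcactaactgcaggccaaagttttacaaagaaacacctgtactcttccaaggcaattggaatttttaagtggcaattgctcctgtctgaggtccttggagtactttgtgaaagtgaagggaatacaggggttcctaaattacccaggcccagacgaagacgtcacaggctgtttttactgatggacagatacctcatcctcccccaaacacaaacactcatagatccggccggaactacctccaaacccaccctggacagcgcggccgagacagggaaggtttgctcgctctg
Nrp2: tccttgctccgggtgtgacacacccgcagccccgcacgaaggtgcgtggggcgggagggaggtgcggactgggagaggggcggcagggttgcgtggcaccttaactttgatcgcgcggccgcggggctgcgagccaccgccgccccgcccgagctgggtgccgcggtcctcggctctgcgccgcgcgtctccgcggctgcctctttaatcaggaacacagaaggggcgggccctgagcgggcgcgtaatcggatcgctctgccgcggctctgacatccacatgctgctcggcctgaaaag
Robo2: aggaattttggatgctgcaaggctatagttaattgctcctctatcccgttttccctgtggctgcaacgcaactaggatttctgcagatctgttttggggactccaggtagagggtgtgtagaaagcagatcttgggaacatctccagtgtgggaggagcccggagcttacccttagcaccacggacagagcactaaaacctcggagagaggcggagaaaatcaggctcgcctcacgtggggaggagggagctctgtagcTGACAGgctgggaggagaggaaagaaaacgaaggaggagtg
Plxna2: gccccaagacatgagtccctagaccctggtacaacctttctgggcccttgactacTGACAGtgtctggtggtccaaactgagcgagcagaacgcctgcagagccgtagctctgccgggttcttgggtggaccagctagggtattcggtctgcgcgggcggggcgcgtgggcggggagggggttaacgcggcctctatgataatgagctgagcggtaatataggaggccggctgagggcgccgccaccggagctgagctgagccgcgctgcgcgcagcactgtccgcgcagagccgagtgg

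With the quasi-likelihood test of edgeR over 15065 genes, *Robo1*, *Robo2*, *Sema3a*, *Nrp1* and *Nrp2* were higher and *Slit2*, *Slit3* and *Sema3d* lower in the sorted cells. The sorted library is 1 sample, and the test takes it to vary like the 2 whole limb libraries, with 1 residual degree of freedom. Across all genes, 53.3% were called, 26.8% higher and 26.5% lower, so a call by itself sets none of these genes apart.

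The ligand *Slit2* was at 8.97 CPM in the sorted library and at 16.4 and 16.8 CPM in whole 1 and whole 2. *Slit3* was at 12.5, 26.2 and 28.3 CPM in the same order. In both cases the sorted library was below both whole limb libraries, by 1.07 and 1.31 on the log2 scale (SE 0.15 and 0.14, adjusted p = 3.74e-12 and 2.15e-19). In proximal-type cells, those with a UMI of *Meis1* or *Meis2* and none of *Hoxa13* or *Hoxd13*, the log2 fold change of *Slit3* was -0.72 (adjusted p = 0.000278). The receptor *Robo1* was at 58.9, 28.2 and 30.3 CPM, a log2 fold change of 0.83 (SE 0.12). *Robo2* was at 113, 69.9 and 73.9 CPM, a log2 fold change of 0.47 (SE 0.09).

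Among the semaphorins, *Sema3a* was at 63.5 CPM in sorted cells against 31.3 and 30.1 CPM in whole 1 and whole 2, with a log2 fold change of 0.87 (SE 0.11). *Sema3d* was at 5.30, 7.50 and 7.42 CPM, with a log2 fold change of -0.67 (SE 0.18). *Sema3c* was at 10.9, 9.41 and 10.6 CPM and was not called (log2 fold change -0.05, SE 0.15, adjusted p = 0.786). Its log2 fold change was 0.28 in proximal-type cells (adjusted p = 0.297). Its log2 ratio of CPM + 1 was 0.04 without whole 1 and 0.20 without whole 2. That ratio does not correct for library composition, so it is a different measure from the -0.05. The call of *Sema3d* did not hold among cells with at least 5000 UMIs (adjusted p = 0.115). That of *Sema3a* did not hold in proximal-type cells, where its log2 fold change was -0.02 (adjusted p = 0.922).

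The neuropilin *Nrp2* was at 217 CPM in sorted cells against 124 and 126 CPM (log2 fold change 0.61, SE 0.09). *Nrp1* was at 92.2, 67.6 and 60.6 CPM (log2 fold change 0.35, SE 0.09). *Plxna2* was at 3.86, 2.19 and 2.84 CPM and was not called (log2 fold change 0.44, SE 0.22, adjusted p = 0.0751). It turned to -0.43 over all filtered cells (adjusted p = 0.0516), at 3.87 CPM in sorted cells against 4.40 and 4.87 CPM, and to -0.27 in proximal-type cells (adjusted p = 0.510). The *Meis* and *Hox13* genes are known to mark the proximal and the distal limb bud, and in proximal-type cells *Robo2* was not called either (log2 fold change 0.09, adjusted p = 0.515). *Nrp1* was not called with no filter on low counts (adjusted p = 0.0752). The 7 erythroid markers summed to 0.160 CPM in the sorted library, with 4 of them at 0, and to 99.0 and 4.22 CPM in whole 1 and whole 2, and their part in these differences was not tested.

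Of 26 other Slit, Robo, semaphorin and plexin pathway genes tested, 14 were higher and 5 lower in sorted cells, against 26.8% and 26.5% of all genes. The largest log2 fold changes upward were those of the transmembrane semaphorins *Sema5b* (1.52), *Sema4g* (1.51) and *Sema4f* (1.22) and of the plexin *Plxnc1* (1.44). Downward they were those of the secreted *Sema3g* (-2.80, on 1 UMI in the sorted library), of *Sema5a* (-0.77) and *Sema6d* (-0.66) and of *Srgap2* (-0.53), which encodes a Slit-Robo GTPase-activating protein. Of these 8 genes, *Sema4g* and *Sema5a* were called under every alternative that gave a test. DESeq2 did not call *Sema5b* (adjusted p = 0.0727), *Plxnc1* (0.185) or *Sema6d* (0.176). *Sema4f* (adjusted p = 0.411) and *Srgap2* (0.0710) were not called in proximal-type cells, nor *Sema3g* with no filter on low counts (0.108).

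**Figure D1:**
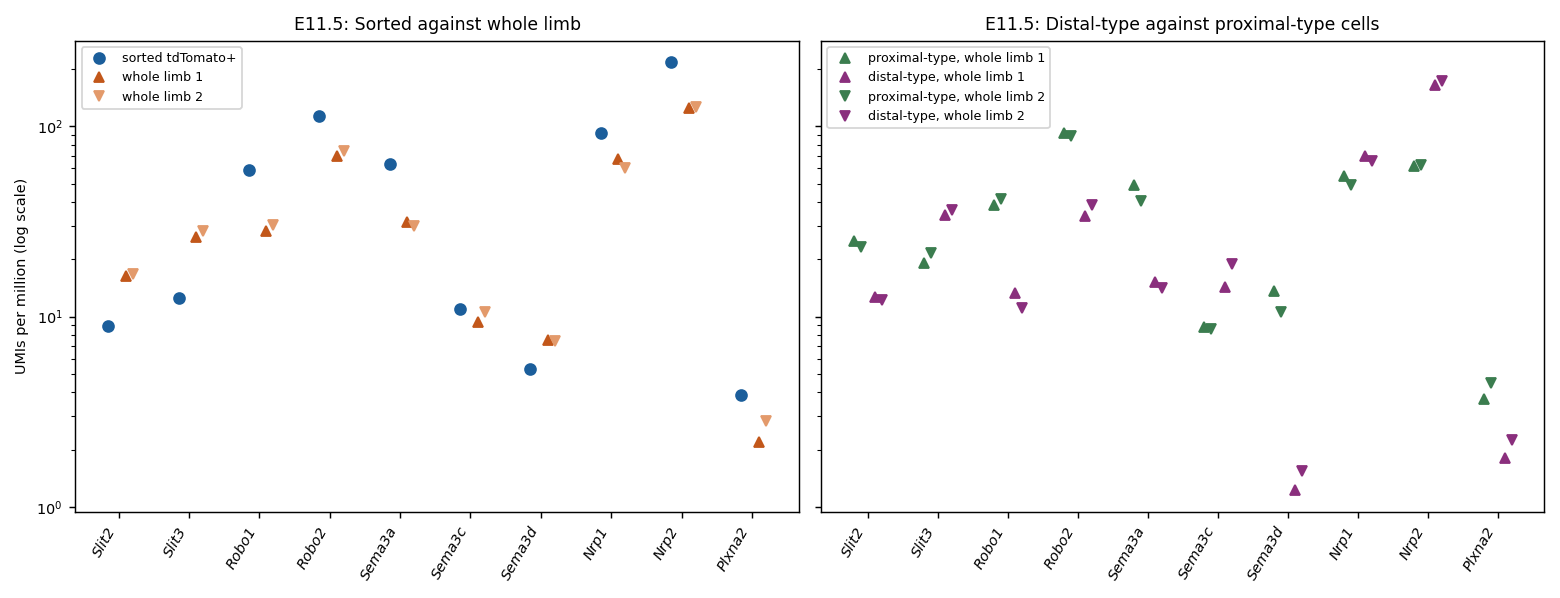
CPM (log scale) of each gene at E11.5, as single points for each library. Left, sorted tdTomato+ cells against the 2 whole limb libraries, with *Slit2* and *Slit3* lower and *Nrp2* higher in the sorted library. Right, distal-type against proximal-type cells within each whole limb library, a comparison in which 53.8% of all genes were called.

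Along the axis of the E11.5 limb the guidance genes split into proximal and distal sets. Distal-type cells were mesenchymal cells of the whole limb with a UMI of *Hoxa13* or *Hoxd13* and none of *Meis1* or *Meis2*, and proximal-type cells the reverse, which follows the known positions of these genes in the limb bud. With library as a block, edgeR tested 12670 genes and called 53.8%, with 27.3% higher and 26.6% lower in distal-type cells. All 10 guidance genes were called, 4 higher and 6 lower, against that background. Their median log2 difference was -0.94, against -0.19 over the 22 other pathway genes tested and 0.00 over all genes. The 10 genes were chosen with earlier results of these data known, so these values describe this list and not guidance genes at large.

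*Sema3d* had the largest difference (log2 fold change -3.09, SE 0.19, adjusted p = 5.97e-20). It was at 1.22 and 1.54 CPM in distal-type and 13.6 and 10.6 CPM in proximal-type cells of whole 1 and whole 2. The distal-type sums held 21 and 24 UMIs. Without whole 1, its log2 ratio of CPM + 1 was -2.19. That measure has no test, and the added 1 CPM makes ratios of low values smaller. *Robo1* was at 13.3 and 11.1 CPM in distal-type against 38.5 and 41.3 CPM in proximal-type cells (-1.67, SE 0.09). *Robo2* was at 33.9 and 38.4 CPM against 91.7 and 89.0 CPM (-1.28, SE 0.06). Both receptors of Slit were thus higher proximally in each library.

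*Sema3a*, a repellent of growing axons, was at 15.2 and 14.2 CPM in distal-type and 49.2 and 40.3 CPM in proximal-type cells (-1.56, SE 0.08). *Slit2* was at 12.7 and 12.3 CPM against 24.9 and 23.3 CPM (-0.90, SE 0.10). *Plxna2* was at 1.80 and 2.25 CPM against 3.68 and 4.49 CPM (-0.97, SE 0.22), on 31 to 62 UMIs a sum, and its call did not hold in DESeq2 (adjusted p = 0.166). In the other direction, *Nrp2* was at 165 and 172 CPM in distal-type and 61.5 and 62.4 CPM in proximal-type cells (1.49, SE 0.04). *Slit3* (34.2 and 36.4 against 19.1 and 21.7 CPM, 0.83, SE 0.08), *Sema3c* (14.2 and 19.0 against 8.80 and 8.62 CPM, 0.97, SE 0.12) and *Nrp1* (69.5 and 65.4 against 55.0 and 49.4 CPM, 0.41, SE 0.06) were also higher distally. The 2 Slit genes therefore lay in opposite directions. Of 22 related genes tested, 4 were higher and 10 lower distally, against 27.3% and 26.6% of all genes. The 4 higher ones were *Sema4d* (1.31), *Plxna4* (1.13), *Plxnb1* (0.32) and *Srgap2* (0.31), and the largest differences downward were those of *Sema4f* (-1.81), *Sema4a* (-1.28), *Sema7a* (-1.18) and *Srgap3* (-1.12). Of these 8 genes, DESeq2 called *Sema4d*, *Plxna4* and *Srgap3* and did not call *Plxnb1* (adjusted p = 0.535), *Srgap2* (0.204), *Sema4f* (0.274), *Sema4a* (0.104) or *Sema7a* (0.398).

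Clusters of the whole limb gave some of the widest ranges. *Sema3d* was at 50.2 and 44.3 CPM in chondrocyte-like cells of whole 1 and whole 2, and at or below 19.4 CPM in every other cluster of at least 50 cells. *Robo2* was at 176 and 189 CPM there. These cells carry the cartilage matrix programme. *Plxna2* was at 27.9 and 28.2 CPM in myogenic-like cells, against 6.75 CPM or less in the mesenchymal clusters, and *Nrp1* was at 10.7 and 7.39 CPM there, the lowest of the clusters. *Sema3d* was itself left out of the clustering.

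In sorted cells from E11.5 to E13.5, within the v2 kit, *Nrp2*, *Robo2* and *Nrp1* became lower and *Sema3c* and *Slit2* higher. With 1 library a stage there is no test, and ratios carry counting error only. *Nrp2* was at 217, 98.7 and 46.5 CPM in the 3 libraries in order of stage, a ratio of 4.67 (95% interval 4.45 to 4.91) between the ends. *Robo2* went from 113 over 62.4 to 46.6 CPM (2.42, 2.29 to 2.55), and *Nrp1* from 92.2 over 45.3 to 43.7 CPM (2.11, 1.99 to 2.24). For *Nrp1* nearly the whole difference lay between E11.5 and E12.5, whereas *Nrp2* was lower again at E13.5. Over the same 3 libraries, the 7 endothelial markers summed to 15.2, 41.0 and 49.0 CPM, with *Cdh5* at 0 at E11.5, and the 14 muscle fibre markers to 11.6, 44.6 and 19.2 CPM, with *Myh8* at 0 at E11.5, and their part in these values was not tested.

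*Sema3c* went from 10.9 to 31.0 CPM, a ratio of 2.84 (2.52 to 3.20), and *Slit2* from 8.97 over 14.4 to 20.4 CPM (2.28, 1.99 to 2.61). Past 2-fold were therefore 2 genes higher and 3 lower, against 6.09% and 4.13% of all genes. *Robo1* (58.9, 78.6, 56.6 CPM) and *Sema3a* (63.5, 60.9, 64.2 CPM) ended close to where they began. *Slit3* (12.5, 13.9, 10.3 CPM), *Sema3d* (5.30, 4.07, 6.28 CPM) and *Plxna2* (3.86, 5.93, 5.02 CPM) moved by less than 2-fold. At the first step alone *Nrp1* and *Nrp2* were 2-fold lower, against 1.27% of all genes, and at the second step *Nrp2*, against 1.89%. The first-step ratio of *Nrp1* was 2.03, and it was short of 2-fold with TMM scaling factors, which correct for differences in library composition (1.997), and among cells with at least 5000 UMIs (1.98). *Slit2* was 2.15-fold higher at the first step after every cell was thinned to 3000 UMIs.

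At the step to E14.5, where the kit changed, *Nrp1* went to 101 CPM and *Slit3* to 21.9 CPM, both over 2-fold higher, against 5.04% of all genes, while 0 of the 10 genes were 2-fold lower, against 6.56%. *Slit3* was at 1.99-fold after every cell was thinned to 3000 UMIs. The median log2 ratio over all genes was -0.19 at this step and -0.18 at the next, and TMM factors added 0.19 and 0.18 to every log2 ratio. With them the genes past 2-fold over the whole table went from 530 higher and 690 lower to 716 and 395 at this step, and from 600 and 702 to 763 and 461 at the next. From E14.5 to the proximal E16.5 segment, within the v3 kit, *Sema3c* went from 35.7 to 107 CPM (2.98, 2.89 to 3.08) and *Sema3d* from 10.7 to 23.3 CPM (2.18, 2.05 to 2.32), against 5.83% of all genes. *Sema3d* was at 1.90-fold over all filtered cells. *Slit2* went from 35.2 to 16.8 CPM, a ratio of 2.09 (2.00 to 2.19), against 6.82%, and with TMM factors its ratio was 1.85. *Nrp1* reached 195 CPM, 1.93-fold higher and 2.18-fold with TMM factors, while *Robo1* stood at 41.0 and 29.3 CPM, *Robo2* at 38.2 and 34.4, *Sema3a* at 35.2 and 27.3, *Nrp2* at 49.0 and 38.8, *Slit3* at 21.9 and 24.3 and *Plxna2* at 4.84 and 5.76. The proximal segment leaves out the autopod, which the earlier limbs included, and this cannot be told apart from stage. Muscle fibre genes summed to 20.0 CPM at E14.5 and 117 CPM in the proximal segment, and erythroid genes to 0.777 and 110 CPM, and their part in these values was not tested.

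From E11.5 to E13.5, 1 of the 15 related genes above the 5 CPM minimum was lower, *Plxna4* (16.3 and 7.40 CPM), and 0 were higher, against 4.13% and 6.09% of all genes. At the step to E14.5, 1 of 17 was higher, *Sema6d* (3.30 and 8.40 CPM), and 0 were lower, against 5.04% and 6.56% of all genes. With TMM factors 4 were higher, with *Plxna4*, *Plxnc1* and *Sema5a* added. From E14.5 to the proximal E16.5 segment, 5 of 16 were lower and 0 higher, against 6.82% and 5.83% of all genes, with the largest ratios for *Sema4b* (6.70 and 2.71 CPM), *Sema4g* (6.21 and 2.59 CPM), *Plxna4* (14.5 and 6.54 CPM) and *Sema3f* (25.1 and 11.4 CPM). With TMM factors 2 were lower, *Sema4b* and *Sema4g*, and 1 was higher, *Sema6d*.

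**Figure D2:**
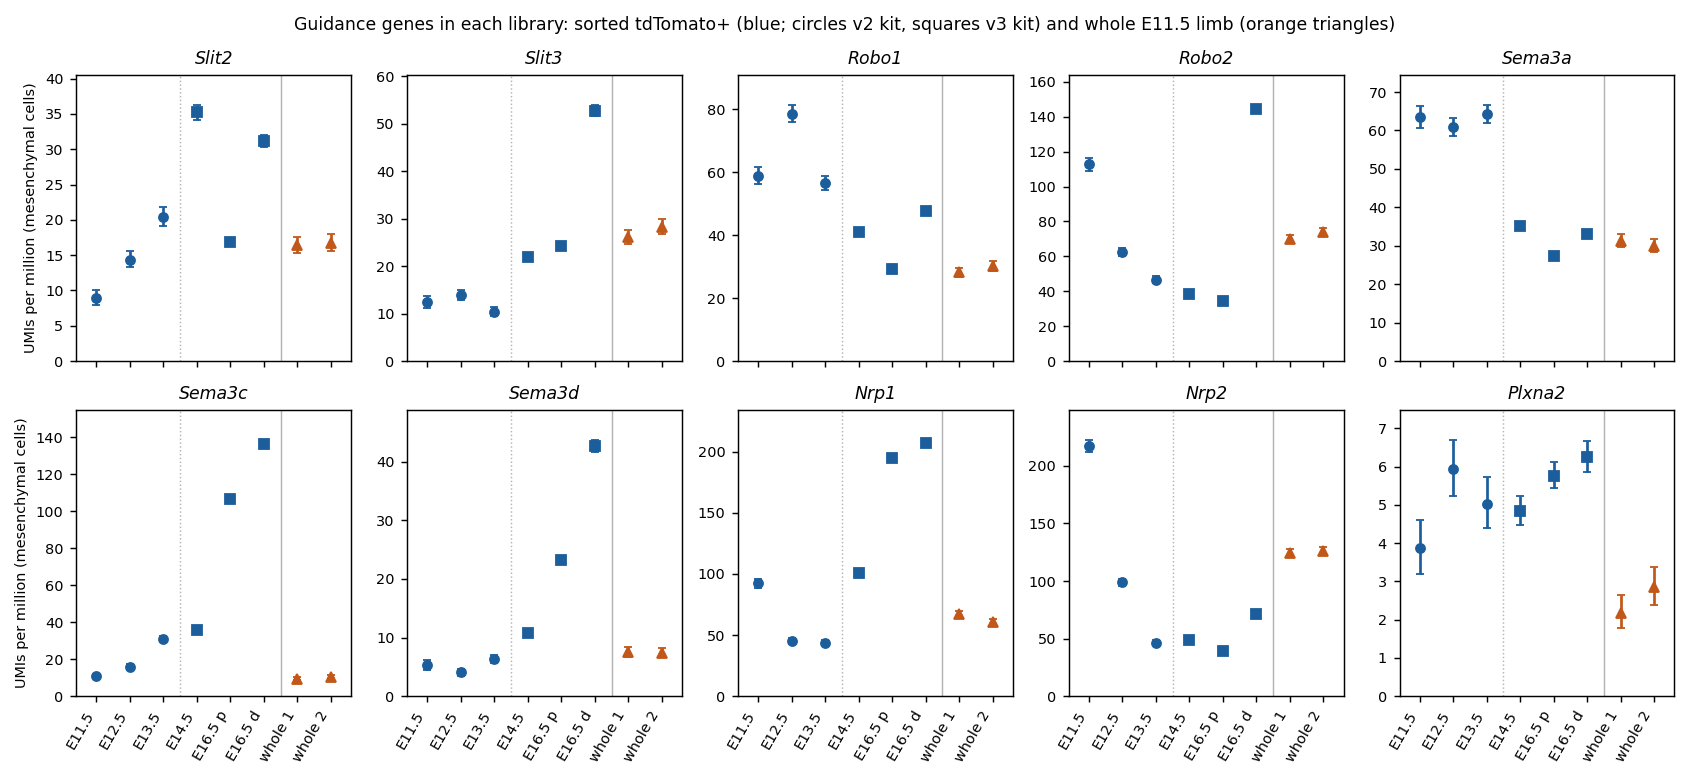
CPM in mesenchymal cells of each library, with exact Poisson 95% intervals. Blue circles are sorted libraries of the v2 kit, blue squares of the v3 kit (p, proximal; d, distal) and orange triangles whole E11.5 limbs; *Nrp2* lies at 217 at E11.5 and at 46.5 at E13.5, and *Robo2* separates the E16.5 segments at 34.4 and 145.

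Within the sorted lineage, levels differed between clusters by E12.5. In a cluster led by *Wwp2*, *Fam19a2* and *Sox6*, *Sema3c* was at 63.2 CPM at E12.5 and 70.6 CPM at E13.5, against 29.3 CPM or less in every other cluster of these 2 libraries. Its perichondrial name rested on a tie with 3 of 7 markers, and at resolution 2 no E12.5 cluster carried that name, so none is used here. *Robo1* was also highest in it, at 112 and 80.2 CPM, as was *Sema3d*, at 17.3 and 15.1 CPM. At E14.5, *Nrp1* was at 434 CPM in dermal fibroblast-like cells and at 57.5 CPM or less in every other cluster, down to 14.5 CPM in a cluster led by *Six2*, *Matn4* and *Mia*. That cluster held 7 of 7 tenocyte markers, but at resolution 2 the library had 535 chondrocyte-like and 530 tenocyte-like cells, so it is left without a name. *Sema3c* was highest in it (62.5 CPM) and *Slit3* in perichondrial-like cells (40.6 CPM). *Slit2* was at 58.1 CPM in dermal fibroblast-like cells and at 63.3 CPM in an unnamed cluster. At E13.5, *Sema3a* was at 109 CPM in fibrogenic progenitor-like cells, the highest of its clusters, and at 33.3 CPM in the lowest.

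At E16.5 the highest levels of the genes lay in different populations, among them fibroblast, mural, perichondrial and unnamed ones. *Sema3c* was highest in fibroblast-like cells (294 CPM proximal, 556 distal). *Nrp1* was highest in pericyte-like cells, the mural cells of small vessels, at 411 and 453 CPM, with 271 and 394 in dermal fibroblast-like cells. At resolution 2, which gives finer clusters, dermal fibroblast-like cells were highest for *Nrp1* among named classes in both segments (265 and 391 CPM). That ranking left out an unnamed cluster with 6 of 8 pericyte markers, which held 238 proximal and 158 distal cells. It was led by *D630033O11Rik*, *Ccl11* and *Cxcl5* and was left unnamed because its leading genes held more markers of another class. Cells named pericyte-like at resolution 2, with 7 of 8 markers and led by *Rgs5* and *Myh11*, numbered 163 and 64. *Nrp1* was thus below 265 and 391 CPM in those named cells. Dermal fibroblast-like cells had the highest level of *Robo2* (140 and 301 CPM), *Slit3* (79.9 and 140 CPM) and *Slit2* (38.2 and 57.8 CPM). Thus 2 ligands and 1 of their receptors peaked in the same class. That class joins cluster 1, with 8 of 8 markers, and cluster 5, with 4 of 8 and led by *Ccl7*, *Cxcl5* and *Ccl2*. Levels were not split between these clusters, so a peak in the same cells was not tested. The share of all genes that peaked in this class was not computed.

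*Nrp2* was highest in perichondrial-like cells of the proximal segment (144 CPM) and in an unnamed cluster led by *Grin2a* and *Dkk2* in the distal one (122 CPM), and among mesenchymal clusters lowest in tenocyte-like cells (6.68 and 10.3 CPM). *Robo1* was highest in an unnamed cluster led by *Rit2* and *Coch* (66.9 and 96.7 CPM). *Sema3d* was at 69.9 CPM in the proximal *Grin2a* cluster, with 86 cells, and at 95.7 CPM in distal dermal fibroblast-like cells, with 0 UMIs in the proximal *Rit2* cluster. *Sema3a* was lowest in pericyte-like cells, at 2.03 and 3.02 CPM. *Plxna2* was at 17.7 CPM or less in every cluster of the 2 segments. That value came from a distal cluster of 491 cells led by *Crym* and *Cdh4*, in which *Robo1* was at 67.5 CPM and *Sema3d* at 0.242 CPM, on 2 UMIs. Another distal cluster, of 1309 cells led by *Calb2* and *Nkain3*, had *Robo1* at 67.8 and *Robo2* at 100.4 CPM. The 10 genes were left out of the clustering, so these levels were not used to form the classes.

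**Figure D3:**
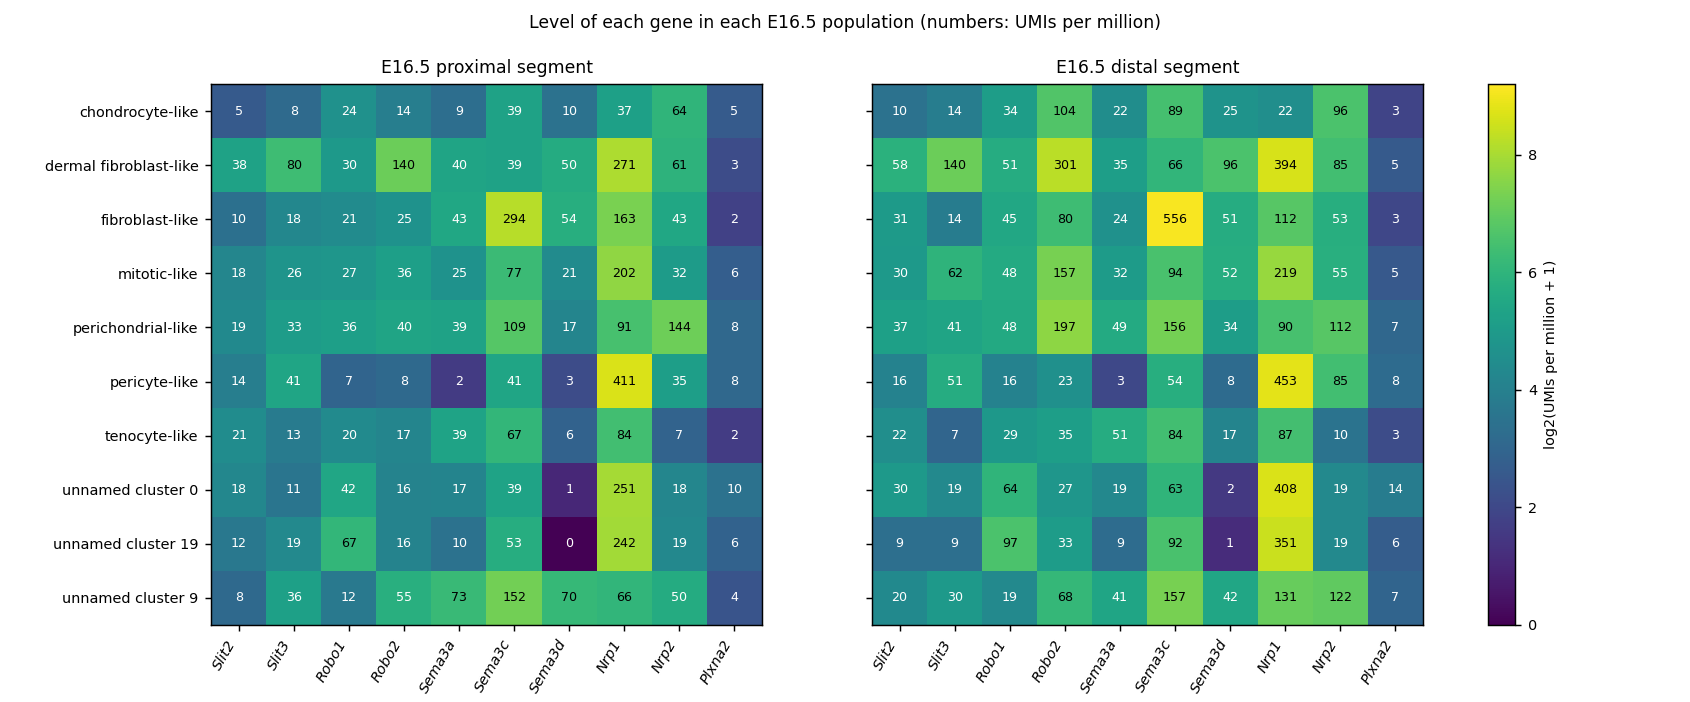
Levels at E16.5 in the 10 populations with at least 50 cells in both segments, coloured by log2(CPM + 1) with the CPM printed in each cell. *Sema3c* peaks in fibroblast-like cells (294 and 556), *Nrp1* in pericyte-like cells (411 and 453) and *Robo2* in dermal fibroblast-like cells (140 and 301). Among named classes at resolution 2, *Nrp1* is highest in dermal fibroblast-like cells (265 and 391).

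Between segments at E16.5, *Robo2* was at 34.4 CPM proximally and 145 CPM distally, a ratio of 4.21 (4.09 to 4.32), and *Slit3* at 24.3 and 52.7 CPM (2.17, 2.09 to 2.25). These 2 genes passed 2-fold, against 4.48% of all genes that were 2-fold higher and 2.57% that were lower. The counts came from Cell Ranger 3.0.2 for the proximal and 6.0.1 for the distal library, which cannot be told apart from segment. Every one of the 10 genes had a higher CPM value distally, although *Nrp1* turned to a log2 ratio of -0.01 with TMM factors. The counting interval of *Plxna2* took in equal levels. The share of all genes with a higher value distally was not computed. The median log2 ratio of the 10 genes was 0.79, against 0.63 over 16 other pathway genes and 0.10 over all genes. *Slit2* (16.8 and 31.1 CPM), *Sema3d* (23.3 and 42.6), *Nrp2* (38.8 and 70.9) and *Robo1* (29.3 and 47.7) came next, and *Sema3c* (107 and 137), *Sema3a* (27.3 and 33.0), *Plxna2* (5.76 and 6.25) and *Nrp1* (195 and 207) differed least. Muscle fibre genes summed to 117 CPM proximally and 29.8 CPM distally and erythroid genes to 110 and 75.7 CPM, and their part in these ratios was not tested.

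*Robo2* was higher distally in all 10 populations shared by the segments, by at least 2-fold in 8 of them, with ratios from 1.24 to 7.19. It was at 14.5 and 104 CPM in chondrocyte-like cells, at 35.8 and 157 CPM in mitotic-like cells and at 17.3 and 34.9 CPM in tenocyte-like cells. *Robo1* and *Sema3c* were also higher distally in all 10, whereas *Slit3* was higher in 6 and lower in 4. The populations of a segment come from 1 library, so they are not replicates, and the share over all genes was not computed. *Slit2* and *Nrp2* were higher distally in 9 of the 10, *Sema3d* in 8, *Nrp1* in 7 and *Sema3a* and *Plxna2* in 6. The *Sema3d* count includes a bound, from the *Rit2* cluster with 0 CPM proximally. Counting intervals lay above 1 in 9 populations for *Robo1*, *Robo2* and *Sema3c* and in 7 for *Slit2* and *Nrp2*. They did so in 6 for *Slit3*, *Sema3d* and *Nrp1*, in 4 for *Sema3a* and in 1 for *Plxna2*. Intervals lay below 1 in 3 for *Slit3* and *Sema3a*, in 2 for *Nrp1* and in 1 for *Sema3d*, *Nrp2* and *Plxna2*. Chondrocyte-like, fibroblast-like and perichondrial-like cells came mostly from different clusters in the 2 segments. Cluster 8 held 100% of proximal chondrocyte-like cells and cluster 20 held 86.9% of distal ones. Cluster 17 held 97.6% of proximal perichondrial-like cells and cluster 3 held 99.6% of distal ones. Clusters 2 and 10 held 67.3% and 32.1% of proximal fibroblast-like cells and cluster 12 held 86.7% of distal ones. Mitotic-like cells came from clusters 7, 13 and 16 in different shares, with cluster 7 holding 58.3% of them proximally and 35.5% distally. Dermal fibroblast-like cells came from clusters 1 and 5, with 71.7% and 28.3% proximally and 53.0% and 47.0% distally. Tenocyte-like and pericyte-like cells came from 1 cluster each. Of 16 related genes above the 5 CPM minimum, 4 were 2-fold higher distally and 0 lower, against 4.48% and 2.57% of all genes. They were *Sema3e* (0.689 and 7.44 CPM), *Plxna4* (6.54 and 21.2 CPM), *Sema3f* (11.4 and 26.4 CPM) and *Plxnc1* (4.16 and 9.09 CPM).

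**Figure D4:**
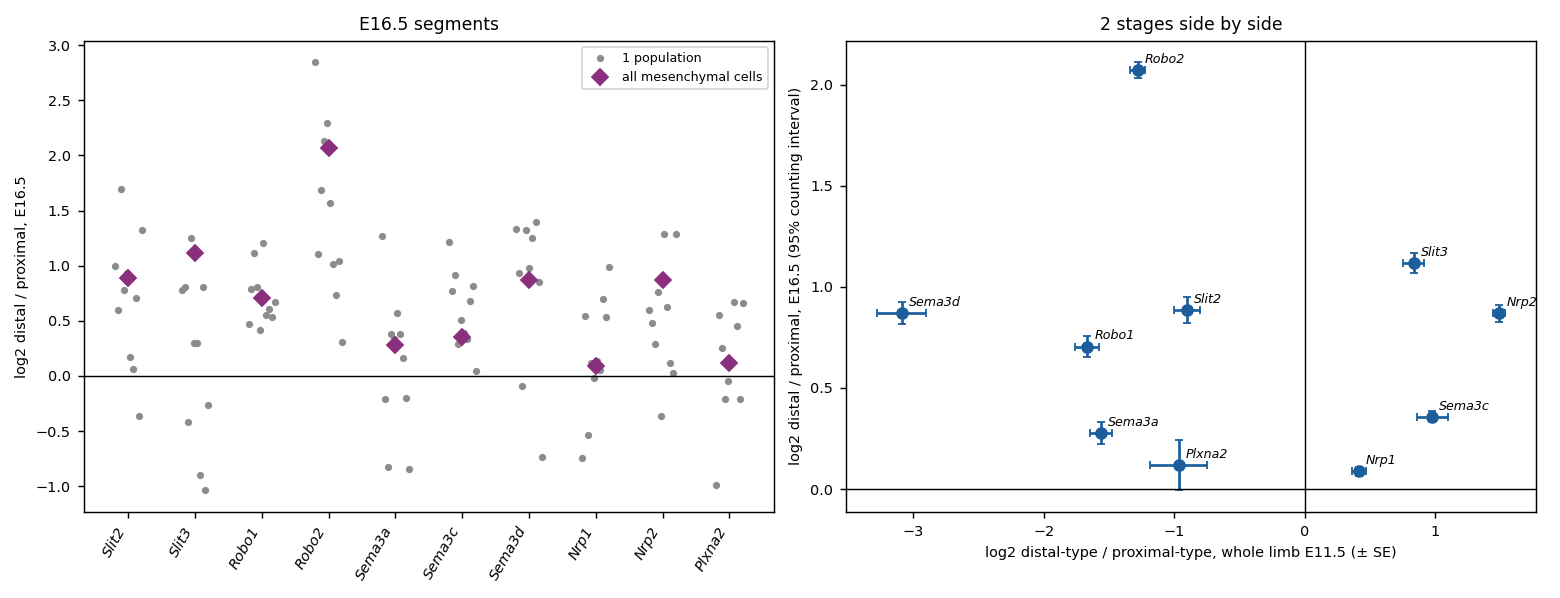
Left, log2 ratio of distal over proximal E16.5 cells for each gene, in each shared population (grey; ratios that are bounds are left out) and over all mesenchymal cells (purple). Right, the E16.5 log2 ratio with its 95% counting interval against the E11.5 log2 fold change of distal-type over proximal-type cells with its SE; *Robo2* lies at 2.07 and -1.28.

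Across 64 groups of cells, defined by library and cluster, the gene most like *Sema3c* among 11685 was *Pxdc1* (Pearson r = 0.87 on log2(CPM + 1)). *Fgfr1* was most like *Robo2* (0.84), *Pde5a* most like *Nrp1* (0.81), *Cdh11* most like *Slit3* (0.80), *Phldb2* most like *Sema3a* (0.79), *Ick* most like *Nrp2* (0.76), *Runx1t1* most like *Robo1* (0.76), *Pth1r* most like *Slit2* (0.72), *Tnnt1* most like *Plxna2* (0.68) and *Mef2c* most like *Sema3d* (0.67). Groups of 1 library share its depth and kit, and these correlations describe the groups without a test. Among pairs of the 10 genes the highest was *Robo2* with *Sema3a* (0.61) and the lowest *Nrp2* with *Plxna2* (-0.49).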

How the data were processed

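Raw UMI counts for every gene and barcode were deposited, which the authors made with Cell Ranger (3.0.2 for 5 sorted libraries and 6.0.1 for the distal one per the file headers; the whole limb matrices name none, and the study's reporting summary names a single other version for all of its single-cell data) on a modified mm10 reference. Near-identical or overlapping transcripts were not resolved further. Members and lists were chosen with earlier results of these data known.

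Cells with at least 3000 UMIs and at most 10% mitochondrial UMIs were clustered in 3 sets (E11.5, time course, E16.5) with 2000 variable genes, 50 principal components, 25 neighbours and Leiden resolution 1 (scanpy 1.11.5, leidenalg 0.10.2), without the 10 genes, 31 related genes and Hox and Meis genes. Clusters were named "-like" from fixed markers, at least 3 per name. A cluster whose 10 leading genes held 3 markers of a non-mesenchymal class was left out as well, a rule added after the clusters were seen. Doublets were kept, because Scrublet's own threshold marked under 0.5% of cells, and removing the highest scores (0.8% per 1000 barcodes) was an alternative.

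UMIs were summed per library and tested with edgeR 4.0.16 (R 4.3.3; TMM, filterByExpr, Benjamini-Hochberg at 0.05), with DESeq2 1.42.0 and limma 3.58.1 as alternatives. On simulated data with 200 genes changed 4-fold, edgeR recovered 200 of them with 8 false calls (sorted against whole) and 200 with 13 false calls (distal-type against proximal-type). Each simulated library was given the spread fitted to the data, so this could not test whether the lone sorted library varies like the others. Only 200 genes were changed, whereas 53.3% were called between the sorted and whole limb libraries. No source says that whole 1 and whole 2 came from separate embryos, so p-values measure the spread between libraries, which may be technical. Single libraries were compared by CPM, where a gene at 5 CPM or more in 1 library counts. All 10 genes were named, and of the related genes at most 4 called, or past 2-fold, in each direction with the largest change. UMI counts of 3′ ends are compared between groups for 1 gene, not between genes. Promoter sequences are from RefSeq (GRCm38.p6).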

Additional observations from a re-analysis of the deposited data

Results flagged for a closer look

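Distal against proximal values of 6 genes had opposite signs at E11.5 and E16.5, and for 5 of them the counting interval of the E16.5 ratio excluded 1. Every gene of the list had a higher CPM value distally at E16.5, so each gene lower distally at E11.5 was counted. The share of all genes with opposite signs was not computed. In the whole E11.5 limb both libraries had lower levels in distal-type cells, while at E16.5 the distal library was higher. The log2 values at E16.5 and E11.5 were 0.89 and -0.90 for *Slit2*, 0.71 and -1.67 for *Robo1*, 2.07 and -1.28 for *Robo2*, 0.28 and -1.56 for *Sema3a* and 0.87 and -3.09 for *Sema3d*. The sixth, *Plxna2*, was at 0.12 at E16.5 (ratio 1.08, interval 0.995 to 1.18) and -0.97 at E11.5. The difference between stages was not tested. The contrasts also differ in kind, since cells at E11.5 were typed by *Meis* and *Hox13* UMIs in unsorted limbs and those at E16.5 came from dissected segments of sorted cells.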

How the results depend on the processing

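The count of genes called between the sorted library and the whole limb was 8031, and 4873 with DESeq2, 4351 with no filter on low counts and 4977 in proximal-type cells. There, *Sema3a* turned from 0.87 to -0.0175 on the log2 scale. *Sema3d* was not called at 5000 UMIs or more (adjusted p = 0.115), nor *Nrp1* with no filter on low counts (0.0752). Between distal-type and proximal-type cells 6819 genes were called, 4497 without the replicate block and 3003 with DESeq2. All 10 guidance genes were still called without the block. Both types come from the same library, so the block follows from the design. No paired analysis was possible because no label links the sorted library to either whole limb library. Leaving out a whole limb library gave log2 ratios of CPM + 1, without TMM factors or a test, and each called gene kept its direction.

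Genes past 2-fold from E11.5 to E12.5 numbered 2, and 1 with TMM factors and 1 at 5000 UMIs or more (*Nrp2* in each), and 3 after thinning, which added *Slit2*. From E13.5 to E14.5 they numbered 2, and 1 after thinning (*Nrp1*). Between E16.5 segments they numbered 2, and 5 with all filtered cells, which added *Slit2*, *Sema3d* and *Nrp2*. Over all genes the counts between segments were 716, and 1081 with all filtered cells. At 1.5-fold the counts were 5 from E11.5 to E12.5, 3 from E12.5 to E13.5, 5 from E13.5 to E14.5 and 6 between segments. Over all genes, in the same order, 1408 of 10255, 1180 of 10366, 3310 of 10514 and 2371 of 10150 passed 1.5-fold. With cells called by their own markers, the highest named class in the proximal segment stayed the same for 5 of 10 genes. These were *Slit2*, *Slit3*, *Robo2*, *Sema3c* and *Nrp1*. Among named classes at resolution 2, *Nrp1* was highest in dermal fibroblast-like cells of both segments. The cause of these changes was not tested. TMM factors added 0.19 to all log2 ratios at E14.5 and 0.18 at proximal E16.5. There they left 3 of the 10 genes past 2-fold, with *Nrp1* in place of *Slit2*. Related genes past 2-fold at E14.5 numbered 1, and 4 with TMM factors, 3 after thinning and 2 at 5000 UMIs or more. At proximal E16.5 they numbered 5, and 3 with TMM factors. Over the 6 pairs of libraries they numbered 0 to 5, 4 to 9 with no minimum of 5 CPM and 1 to 8 at 1.5-fold. Counts were low for *Plxna2*, with 102 UMIs in whole 1, and for *Sema3d*, with 21 and 24 UMIs in distal-type cells of whole 1 and whole 2.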
